A study of Homo sapiens with 12 samples.

Results

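FOXP1, its antisense transcript FOXP1-AS1 and its paralogue FOXP4 were followed in SU-DHL-4 cells exposed to an inhibitor of spleen tyrosine kinase (SYK), to an inhibitor of the bromodomain and extra-terminal (BET) proteins, or to both. The members are 3 of the 46863 rows of the count table, taken by their gene symbols, and all 3 were among the 16835 genes that passed the filter on low counts. FOXP1-AS1 was chosen by its own values, since it was selected for higher counts with both agents in these same libraries, so its levels are given as a description and without a test. FOXP1 and FOXP4 were added as its host gene and as a relative from the same family, and their values were tested.

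SU-DHL-4 is an established line of diffuse large B-cell lymphoma (DLBCL) of the germinal centre type, grown from a peritoneal effusion and labelled wild type. The 4 groups, of 3 libraries each, were all exposed for 72 h. The control group received the solvent DMSO, the Ento group 1 µM of the SYK inhibitor Entospletinib, the AZD group 0.01 µM of the bivalent BET inhibitor AZD5153, and the Ento+AZD group both agents at these doses. The groups share 1 cell line, so nothing here speaks for other lymphomas, and the labels number the libraries without saying how the cultures were kept apart, so the p-values measure the spread between these libraries.

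The libraries held between 18121993 and 24675830 counts, so that 1 count was worth 0.0393 to 0.0564 CPM (counts scaled to a common library total, with TMM factors). The 4 B cell markers MS4A1, CD79A, CD79B and PAX5 were expressed in every group, with a summed level between 2757 and 5685 CPM per library. Of the 8 markers of other cell types, CD3D and PPBP were at 0 counts in all 12 libraries and CD3E alone passed the filter, and the summed level of the 8 was 0.943 to 1.83 CPM with DMSO, 1.23 to 2.23 CPM with Ento, 0.641 to 0.969 CPM with AZD and 1.00 to 1.18 CPM with Ento+AZD. CD3E itself fell with AZD (log2 fold change -1.02, SE 0.30, adjusted p = 0.0241), and its part in the values of the members was not tested.

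FOXP1 is a forkhead transcription factor that mostly represses its targets, working as a dimer with itself or with FOXP2 or FOXP4 and with corepressors such as CTBP1 and the NuRD complex. In B cells it is needed early in development, is switched down in germinal centre B cells, and at high levels holds back the plasma cell programme. In DLBCL it is known for translocations, for strong staining in the activated B-cell type, and for shorter proteins made from starts inside the gene. FOXP1-AS1 is a long noncoding RNA transcribed from the opposite strand, and no function of it is assumed here.

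In GENCODE on GRCh38, FOXP1 (ENSG00000114861.24) spans 629286 bases at chr3:70954693-71583978 on the minus strand, with 71 annotated transcripts. FOXP1-AS1 (ENSG00000244203.2) lies on the plus strand at chr3:71289769-71305853, with its start 294.2 kb into FOXP1, and its single transcript joins 5 exons to 700 bases. None of these exons overlaps an exon of FOXP1 (0 of 5), but 4 blocks of FOXP1 exon lie within its span, and 3 of its exons have a FOXP1 exon closer than 1 read length of 75 bases. FOXP4 (ENSG00000137166.18) lies at chr6:41546381-41602384 on the plus strand. Exons 3 to 5 of FOXP1-AS1 are shown because even their short windows occur once in the genome, written 5′ to 3′ on the plus strand of GRCh38:
FOXP1-AS1 exon 3, chr3:71296450-71296507: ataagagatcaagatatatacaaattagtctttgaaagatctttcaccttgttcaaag
FOXP1-AS1 exon 4, chr3:71302728-71302860: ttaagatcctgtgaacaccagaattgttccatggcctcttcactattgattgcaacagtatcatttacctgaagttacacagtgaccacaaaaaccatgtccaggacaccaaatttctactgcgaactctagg
FOXP1-AS1 exon 5, chr3:71305672-71305853: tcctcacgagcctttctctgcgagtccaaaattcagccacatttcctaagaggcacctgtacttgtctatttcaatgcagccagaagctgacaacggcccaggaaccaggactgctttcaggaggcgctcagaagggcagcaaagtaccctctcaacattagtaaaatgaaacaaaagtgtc

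In exons 3, 4 and 5 every window of 31 bases occurred once in GRCh38. By contrast, 63.0% of these windows in exon 1 and 5.3% in exon 2 did, and others there occurred up to 398 and 5953 times. In the 4 exons of at least 75 bases every window of full read length was unique. A read of full length that matches exactly could therefore be placed in any of them. How the counting treated reads shortened by trimming or with mismatches was not tested.

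The exons of both genes come closest at exons 3 and 5 of FOXP1-AS1, where the gaps are 4 and 24 bases. These stretches are shown on the plus strand, with the exon bases of either gene in capitals and the gap in lower case:
FOXP1 exon, gap and FOXP1-AS1 exon 3, chr3:71296426-71296469: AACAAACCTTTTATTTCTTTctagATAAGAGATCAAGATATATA
FOXP1-AS1 exon 5, gap and FOXP1 exon, chr3:71305834-71305897: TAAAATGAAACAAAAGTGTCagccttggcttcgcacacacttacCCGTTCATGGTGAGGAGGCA

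The library kit named in the labels is the unmarked version of a kit that also exists in a strand-marking form, and the use of strand in the counting is not given in the sources used here. Reads of unspliced FOXP1 RNA that cross the FOXP1-AS1 exons and reads of FOXP1-AS1 itself thus cannot be told apart, and this holds for every FOXP1-AS1 value. In these bulk samples fewer cells of a kind and less RNA per cell cannot be told apart either.

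FOXP1 is also transcribed from within the antisense gene. Of its transcripts, 2 start inside the span of FOXP1-AS1 and 5 start within 250 bases past its end. The set of RefSeq promoter windows used here has 6 for FOXP1 and 1 for FOXP4 (250 bases before to 50 after a start). It holds none for FOXP1-AS1, although RefSeq lists that gene. The first FOXP1 window, the window inside FOXP1-AS1 and the FOXP4 window are shown to compare the starts of the host gene with that of its paralogue, 5′ to 3′ on each gene's strand (GRCh38.p14), with a searched motif in capitals where one was found:
FOXP1, first start, chr3:71583679-71583978, minus strand: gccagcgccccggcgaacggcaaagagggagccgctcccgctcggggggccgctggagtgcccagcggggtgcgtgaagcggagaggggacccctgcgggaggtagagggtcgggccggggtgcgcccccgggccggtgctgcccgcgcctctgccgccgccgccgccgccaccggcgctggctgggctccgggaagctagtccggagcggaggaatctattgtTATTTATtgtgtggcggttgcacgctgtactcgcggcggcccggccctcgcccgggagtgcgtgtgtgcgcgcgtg
FOXP1, start inside FOXP1-AS1, chr3:71304722-71305021, minus strand: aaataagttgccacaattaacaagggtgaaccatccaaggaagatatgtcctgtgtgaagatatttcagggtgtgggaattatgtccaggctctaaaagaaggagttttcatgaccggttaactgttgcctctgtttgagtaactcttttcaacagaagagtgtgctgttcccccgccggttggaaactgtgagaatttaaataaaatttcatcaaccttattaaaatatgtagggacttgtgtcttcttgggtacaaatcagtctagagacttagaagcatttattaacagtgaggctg
FOXP4, chr6:41546131-41546430, plus strand: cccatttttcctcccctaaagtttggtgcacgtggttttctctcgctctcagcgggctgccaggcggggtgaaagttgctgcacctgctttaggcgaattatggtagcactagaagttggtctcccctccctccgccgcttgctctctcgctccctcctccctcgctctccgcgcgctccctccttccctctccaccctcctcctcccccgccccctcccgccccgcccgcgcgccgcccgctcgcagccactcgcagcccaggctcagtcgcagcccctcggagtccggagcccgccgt

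The first FOXP1 window had a GC content of 75.0% with 41 CG pairs and the FOXP4 window 67.7% with 27, against a median of 58.7% and 14 over all 35116 windows in the table. The window inside FOXP1-AS1 had 39.3% and 3 CG pairs. Forkhead-type motifs were searched on both strands. The motif TGTTTAC was held by 3.4% of all windows in the table. The motif TATTTAT was held by 4.9% of them, the motif TATTTGT by 3.5%, and at least 1 of these motifs by 10.9%. The second of them occurred once in the first FOXP1 window, and neither of the other 2 windows shown held a match. Of all 6 FOXP1 windows 3 held a match, which is a description of these letters only.

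**Figure D1:**
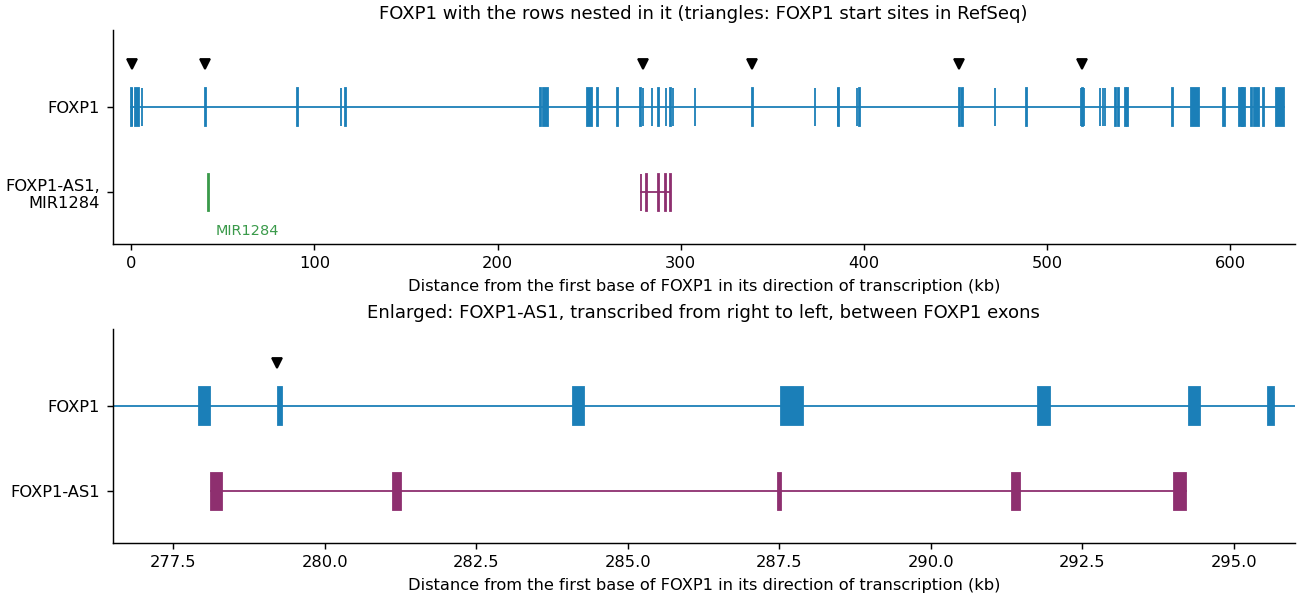
Map of FOXP1 (upper row of each panel) with FOXP1-AS1 and MIR1284 nested in it, by distance in kb from the first base of FOXP1 in its direction of transcription, where boxes are exons and triangles are the FOXP1 start sites in RefSeq. The lower panel enlarges the antisense gene, whose 5 exons fall between FOXP1 exons with gaps down to 4 bases and whose span holds a FOXP1 start.

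FOXP1-AS1 was scarce with DMSO and more abundant in each exposed group, most of all with both agents. It was counted 11, 29 and 11 times in the DMSO libraries 1 to 3, 27, 71 and 29 times with Ento, 22, 68 and 21 times with AZD, and 113, 98 and 55 times with Ento+AZD. The 3 libraries with both agents lay above all 3 DMSO libraries, whereas library 2 stood above the other two in the DMSO, Ento and AZD groups, so that the single-agent groups overlapped DMSO in level. Within every replicate number the exposed library was above its DMSO library, by 1.21, 1.39 and 1.53 on the log2 CPM scale with Ento, by 0.94, 1.39 and 1.08 with AZD, and by 3.41, 1.74 and 2.61 with Ento+AZD.

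As TMM-scaled levels, FOXP1-AS1 had 0.733 ± 0.516 CPM (SD, n = 3) with DMSO, 2.06 ± 1.37 with Ento, 1.86 ± 1.54 with AZD and 4.43 ± 1.23 with Ento+AZD. It passed the filter of 0.478 CPM in 10 of 12 libraries, and both libraries under it were DMSO libraries. The fitted log2 fold change against DMSO was 1.48 (SE 0.40) for Ento, 1.29 (SE 0.41) for AZD and 2.74 (SE 0.37) for Ento+AZD, which are folds of 2.79, 2.44 and 6.67. These values stood at places 92, 69 and 12 from the top among the 16835 genes tested. The difference from additivity on the log2 scale was -0.03 (SE 0.47), so the value with both agents lay close to the sum of the single-agent log2 changes, with a wide error.

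Single libraries weighed on the size of the change. Leaving out AZD library 2, the log2 fold change for AZD was 0.82, and over all left-out libraries it ran from 0.82 to 1.55. The corresponding ranges were 1.27 to 1.73 for Ento and 2.19 to 3.32 for Ento+AZD, and all of these values kept their sign. The departure from additivity did not, with values from -0.66 to 0.61.

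**Figure D2:**
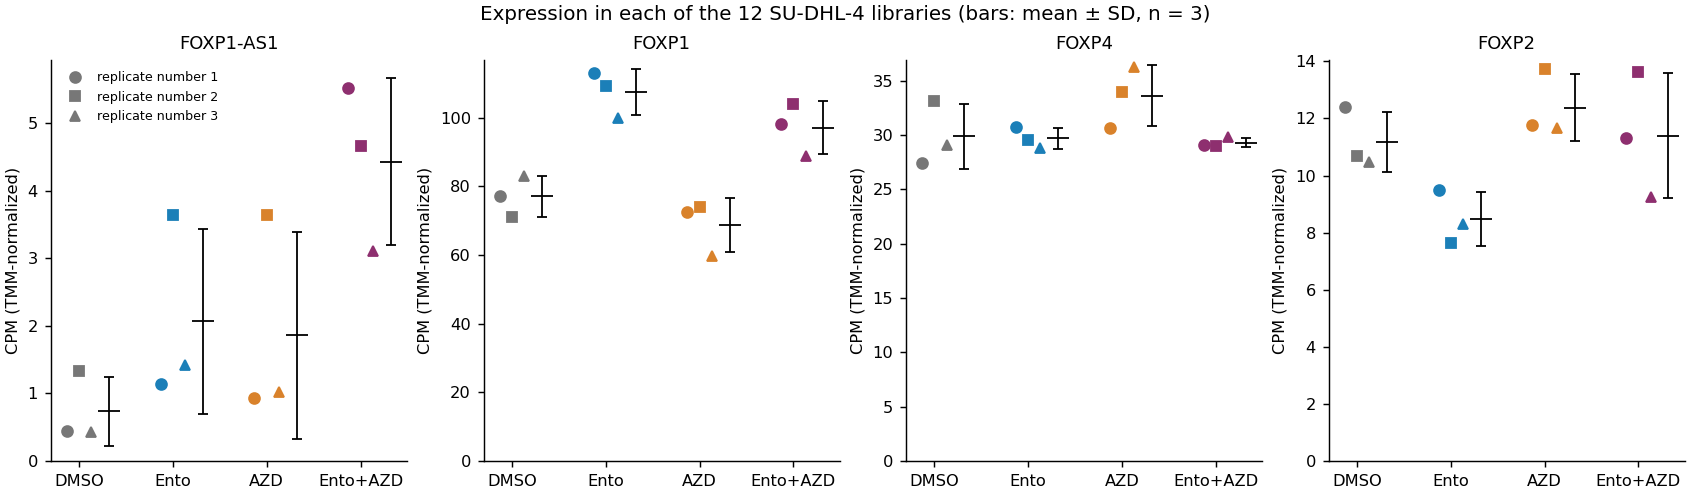
CPM of FOXP1-AS1, FOXP1, FOXP4 and FOXP2 in each library, by exposure group, with a symbol for each replicate number and the mean ± SD (n = 3) beside the points. The 3 Ento+AZD libraries of FOXP1-AS1 (3.10 to 5.53 CPM) sit above the 3 DMSO libraries (0.432 to 1.33 CPM), and FOXP1 is higher in both groups that received Ento, while FOXP4 stays between 27.4 and 36.2 CPM.

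The host gene FOXP1 was overexpressed with Ento and with Ento+AZD, by far less than its antisense transcript. FOXP1 had 77.3, 71.1 and 83.0 CPM with DMSO, 113.0, 109.1 and 100.0 with Ento, 72.4, 74.0 and 59.8 with AZD, and 98.2, 104.1 and 88.7 with Ento+AZD. Both groups with Ento lay above all DMSO and all AZD libraries, the AZD libraries overlapped those with DMSO, and the Ento+AZD libraries overlapped those with Ento. The order of the mean levels was thus Ento (107.3 ± 6.68), Ento+AZD (97.0 ± 7.74), DMSO (77.1 ± 5.95) and AZD (68.7 ± 7.77), where neither the first pair nor the last differed beyond the test's threshold.

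FOXP1 rose by a log2 fold change of 0.47 (SE 0.09, adjusted p = 0.00654) with Ento against DMSO, in 3 of 3 replicate numbers. By the same test 8.32% of all genes were called with Ento, 4.66% as higher and 3.66% as lower. The call was lost without the replicate block (adjusted p = 0.0985), and also with fewer libraries, at 0.0940 without replicate number 1 and 0.0560 without number 2. The log2 fold change itself ran only from 0.37 to 0.60 over all left-out libraries and numbers.

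With Ento+AZD FOXP1 rose by 0.33 on the log2 scale (SE 0.09, adjusted p = 0.0110), again in 3 of 3 replicate numbers, in a comparison where 40.0% of all genes were called, 19.2% as higher and 20.8% as lower. Its adjusted p was 0.0554 without the replicate block, 0.0645 without DMSO library 2, 0.0851 without replicate number 1 and 0.147 without number 2. With AZD alone the log2 fold change was -0.17 (95% interval -0.37 to 0.02, adjusted p = 0.185), against 22.2% of all genes called, 9.57% as higher and 12.7% as lower. Without DMSO library 2, whose FOXP1 level was the lowest of its group, the AZD value became -0.27 with adjusted p = 0.0451, and without DMSO library 3, the highest, it was -0.04 with adjusted p = 0.746.

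Adding Ento to AZD raised FOXP1 by 0.50 on the log2 scale (SE 0.09, adjusted p = 0.00500), in 3 of 3 replicate numbers, while 11.9% of all genes were called in this comparison. Here adjusted p was 0.133 without the replicate block and 0.0655 without replicate number 1. Adding AZD to Ento gave -0.15 (95% interval -0.34 to 0.05, adjusted p = 0.274), where 20.4% of all genes were called. The interaction of the agents was 0.03 for FOXP1 (95% interval -0.25 to 0.30, adjusted p = 0.962). Of the 16835 filtered genes edgeR called 0 (0%) for an interaction, with 1652 at an unadjusted p under 0.05, and DESeq2 called 7. Without the filter edgeR called 278, and with libraries left out it called up to 219.

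**Figure D3:**
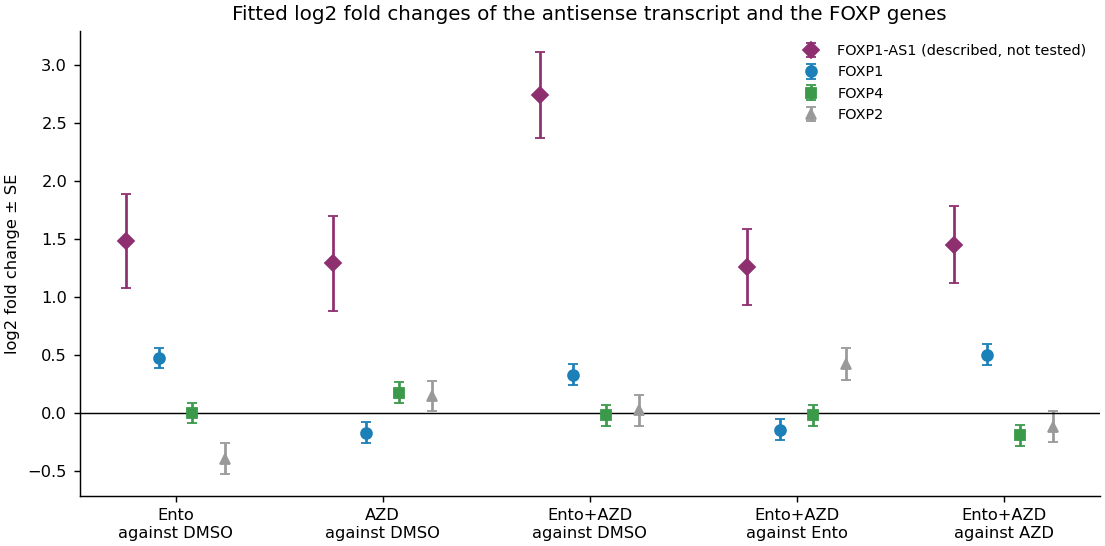
Fitted log2 fold change ± SE of FOXP1-AS1, FOXP1, FOXP4 and FOXP2 in 5 comparisons of the exposure groups, where 0 means no difference. The FOXP1-AS1 points (1.26 to 2.74) are a description of a gene selected on these values, and FOXP1 lies above 0 in the 3 comparisons in which Ento was added.

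The ratio of FOXP1-AS1 to FOXP1 counts is given as a description. A higher ratio with both agents was built in by the choice of FOXP1-AS1. For 1000 FOXP1 counts there were 5.66, 18.7 and 5.21 FOXP1-AS1 counts with DMSO, 10.0, 33.3 and 14.3 with Ento, 12.8, 49.1 and 17.0 with AZD, and 56.3, 44.9 and 35.0 with Ento+AZD. The group means were 9.85, 19.2, 26.3 and 45.4. AZD library 2 reached the range of the Ento+AZD libraries, and otherwise the libraries with both agents were the highest. Per kb of the canonical transcript (700 bases for FOXP1-AS1, 7177 for FOXP1) the mean levels were 1.05 against 10.7 CPM with DMSO. With Ento+AZD they were 6.33 against 13.5. All annotated exons of FOXP1 together cover 32800 bases, so which gene was higher per kb with Ento+AZD depends on the length chosen. Over the 12 libraries, after removal of the means of the replicate numbers, the log2 CPM of both genes correlated with r = 0.45, a value that shares libraries and exposure groups and is given as a description.

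As FOXP1-AS1 was selected on its rise with both agents, a high place of its pair was built in by the choice, and the places are a description. The pair was set beside all other tested genes named as the antisense of a tested host, 305 pairs. The log2 fold change of FOXP1-AS1 with Ento+AZD exceeded that of FOXP1 by 2.41, which was place 2 of 306. The other pairs had a median difference of 0.29, with quartiles of -0.08 and 0.73. Of the 305 other antisense genes 96 rose and 21 fell with Ento+AZD, against 19.2% and 20.8% of all genes, with a median log2 fold change of 0.33 where that of all genes was 0.01. With Ento the FOXP1 pair stood at place 14 (1.01, where 17 of the others rose and 5 fell) and with AZD at place 5 (1.46, where 34 rose and 15 fell). Over all genes 4.66% were higher and 3.66% lower with Ento, and 9.57% and 12.7% with AZD.

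**Figure D4:**
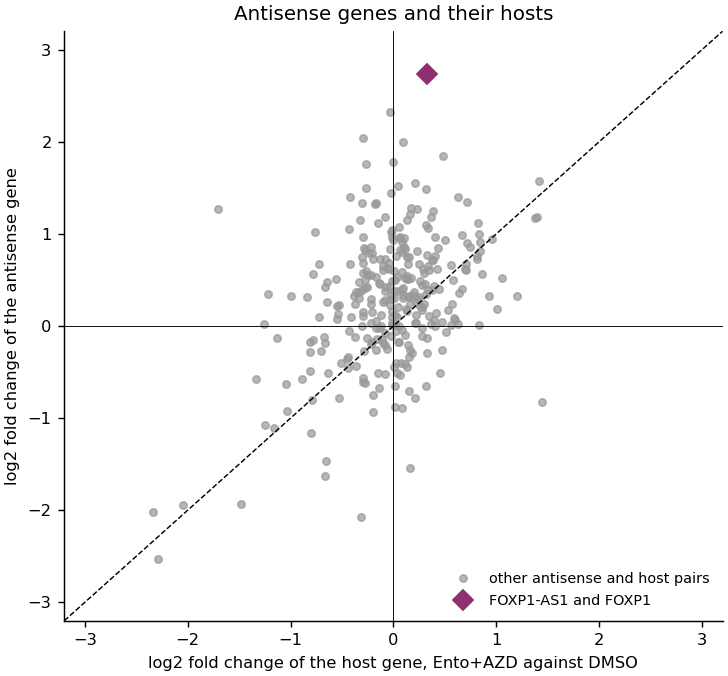
Log2 fold change with Ento+AZD against DMSO of 306 antisense genes (vertical) against that of their host genes (horizontal), where the dashed line marks equal change. The FOXP1-AS1 pair (0.33 for the host, 2.74 for the antisense gene) stands highest of all points.

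FOXP4, the paralogue that can pair with FOXP1, was not called in any comparison. Its libraries had 27.4, 33.2 and 29.0 CPM with DMSO, 30.7, 29.6 and 28.8 with Ento, 30.6, 33.9 and 36.2 with AZD, and 29.1, 29.0 and 29.8 with Ento+AZD. The groups overlapped, except that the Ento+AZD libraries lay just below all AZD libraries. Against DMSO the log2 fold change was -0.0036 for Ento (95% interval -0.20 to 0.19, adjusted p = 0.988), 0.17 for AZD (-0.02 to 0.36, adjusted p = 0.187) and -0.02 for Ento+AZD (-0.22 to 0.17, adjusted p = 0.849). Ento+AZD differed from AZD by -0.20 (-0.39 to -0.0019, adjusted p = 0.174) and from Ento by -0.02 (-0.22 to 0.17, adjusted p = 0.894). The intervals are not adjusted for the number of genes. These intervals leave room for changes of up to about 0.39 on the log2 scale.

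The balance of both paralogues differed between the groups. The log2 ratio of FOXP4 to FOXP1 was -1.49, -1.10 and -1.51 in the DMSO libraries, -1.87, -1.88 and -1.79 with Ento, -1.24, -1.12 and -0.72 with AZD, and -1.75, -1.84 and -1.57 with Ento+AZD. All libraries with Ento lay below all libraries without it. An exact permutation test of the ratio over the 4 groups, with labels permuted within replicate numbers, gave p = 0.00521 (F = 10.9, one-sided by construction, 576 arrangements). With 1 replicate number left out, p was 0.125, 0.0417 and 0.125 without number 1, 2 and 3, where 0.0417 is the smallest value that 24 arrangements allow.

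**Figure D5:**
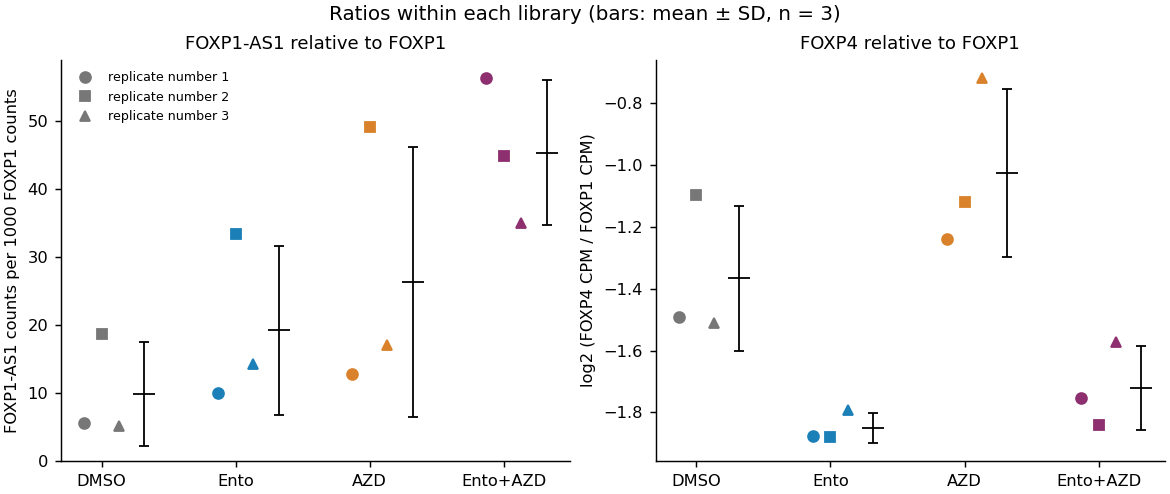
FOXP1-AS1 counts per 1000 FOXP1 counts (left) and log2 ratio of FOXP4 to FOXP1 CPM (right) in each library, with a symbol for each replicate number and the mean ± SD (n = 3) beside the points. The left values average 9.85 with DMSO and 45.4 with Ento+AZD, and on the right the 6 libraries with Ento (-1.88 to -1.57) lie below the 6 without it (-1.51 to -0.72).

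The other FOXP genes were less expressed. Per kb of the canonical transcript, the mean CPM with DMSO was 10.7 for FOXP1, 4.98 for FOXP4, 1.71 for FOXP2 and 0.254 for FOXP3. All annotated exons cover 32800 bases for FOXP1 and 8078 for FOXP4, so the order of FOXP1 and FOXP4 depends on the length chosen. FOXP2, better known from the brain, had 12.4, 10.7 and 10.5 CPM with DMSO, 9.50, 7.63 and 8.30 with Ento, 11.8, 13.7 and 11.7 with AZD, and 11.3, 13.6 and 9.25 with Ento+AZD. The Ento libraries were the lowest group and lay below all DMSO libraries, with a log2 fold change of -0.40 that did not pass the test (95% interval -0.69 to -0.11, adjusted p = 0.0874). Of the 5 comparisons FOXP2 was called in Ento+AZD against Ento (log2 fold change 0.42, SE 0.14, adjusted p = 0.0455). FOXP3, the factor of regulatory T cells, had 8 to 17 counts per library and was not called in any comparison.

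Of the 53 forkhead rows 17 were tested. With Ento 2 of them rose, FOXP1 and FOXO1 (log2 fold change 0.30, adjusted p = 0.0222), and 0 fell, and FOXP1 had the highest value of the 17. With AZD 1 rose and 5 fell, and with Ento+AZD 2 rose and 5 fell. The shares of all genes that rose and fell were 4.66% and 3.66% with Ento, 9.57% and 12.7% with AZD, and 19.2% and 20.8% with Ento+AZD. The 3 largest falls with both agents were those of FOXO6 (-1.88, adjusted p = 0.00124, counted 15 to 36 times with DMSO and 5 times in each library with both agents), of FOXJ2 (-1.82, adjusted p = 7.92e-06) and of FOXM1, which drives genes of mitosis (-1.60, adjusted p = 4.16e-05). FOXO1, which FOXP1 is known to rival at shared sites in T cells, rose by 0.43 (adjusted p = 0.000433). The median log2 fold change of the 17 was -0.12, 0.11 and 0.04 with Ento, AZD and Ento+AZD, where that of all genes was 0.01 each time.

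Few rows near the locus held counts. Within 500 kb of FOXP1 there were 10 other rows besides FOXP1-AS1, of which 6 had 0 counts in all libraries and 1 was tested. A single library at 0 still leaves room for an expected count of up to 3 there. Whether a row at 0 was not expressed or was left at 0 by the counting was not tested. MIR1284, the one other row inside FOXP1, had 0 to 3 counts per library. The tested row was LINC00877, a noncoding gene whose nearest end in GENCODE is 359.6 kb beyond the FOXP1 start. It was counted 112, 157 and 39 times with DMSO, 171, 328 and 57 times with Ento, 126, 248 and 68 times with AZD, and 232, 374 and 112 times with Ento+AZD. Library 2 was the highest in every group and library 3 the lowest, so the groups overlapped in level.

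Against the DMSO library of the same number LINC00877 was higher in 3 of 3 cases with each exposure. Its log2 fold changes were 0.95 with Ento (adjusted p = 0.00826), 0.71 with AZD (adjusted p = 0.0190) and 1.51 with Ento+AZD (adjusted p = 4.10e-05). After removal of the replicate-number means its log2 CPM correlated with that of FOXP1-AS1 at r = 0.92 and with that of FOXP1 at r = 0.45 over the 12 libraries. LINC00877 was 1 of 207 tested genes above r = 0.9 with FOXP1-AS1, so this likeness was not particular to the locus. The correlations share libraries and exposure groups, and they are a description.

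Around FOXP4, 14 of 36 other rows were tested, and with Ento+AZD 5 rose and 2 fell, where 19.2% of all genes rose and 20.8% fell. CCND3, a G1 cyclin, fell by 0.26 on the log2 scale (adjusted p = 0.0137), and TREM1 fell by 2.05 (adjusted p = 0.00606). NFYA, a subunit of the CCAAT-binding factor, rose by 0.32 (adjusted p = 0.00389), and BYSL, needed for ribosome assembly, rose by 0.46 (adjusted p = 0.00437). FOXP4-AS1, the antisense gene that overlaps the 5′ end of FOXP4, had 1 to 14 counts per library and did not pass the filter, so the paralogue gave no antisense pair to set beside that of FOXP1.

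Genes that FOXP1 is known to hold down in B cells moved apart from each other. Of 6 proapoptotic genes 5 were tested, and with Ento 3 rose and 0 fell (median log2 fold change 0.36, where that of all genes was 0.01 and 4.66% of them rose and 3.66% fell). AIM2, a DNA sensor of the inflammasome, went from 56.5 ± 13.4 to 116.2 ± 20.4 CPM (log2 fold change 1.05, adjusted p = 8.96e-06). RASSF6, of a family of Ras-binding tumour suppressors, went from 8.69 ± 2.28 to 37.1 ± 20.5 CPM (2.03, adjusted p = 6.14e-05), and EAF2, an elongation factor partner, rose by 0.36 (adjusted p = 0.0174).

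With AZD, where 9.57% of all genes rose and 12.7% fell, 0 of these 5 rose and RASSF6 fell, to 1.39 ± 0.426 CPM (-2.59, adjusted p = 0.000113), with a median of -0.14. With Ento+AZD, where 19.2% of all genes rose and 20.8% fell, AIM2 (1.20, adjusted p = 1.82e-06) and TP53INP1, a p53 target (0.91, adjusted p = 9.34e-05), rose and BIK, a BH3-only protein, fell (-0.81, adjusted p = 0.0123), with a median of 0.04.

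Of 7 plasma cell genes 4 were tested. With Ento 1 rose and 0 fell, and with AZD and with Ento+AZD 1 rose and 1 fell. Over all genes 4.66%, 9.57% and 19.2% rose and 3.66%, 12.7% and 20.8% fell with Ento, AZD and Ento+AZD. XBP1, which builds the secretory apparatus, rose with Ento (log2 fold change 1.33, adjusted p = 0.000242), AZD (1.14, adjusted p = 0.000520) and Ento+AZD (1.70, adjusted p = 6.69e-06), from 2.85 ± 0.596 CPM with DMSO to 9.31 ± 2.54 with both agents. TNFRSF17, the receptor BCMA, fell with AZD (-0.53, adjusted p = 0.0433) and Ento+AZD (-0.63, adjusted p = 0.0106). JCHAIN and MZB1 were not called against DMSO, and PRDM1, IRF4 and SDC1 were at or near 0 in all groups and not tested. The median of the 4 was 0.20, -0.02 and 0.07 with Ento, AZD and Ento+AZD, where that of all genes was 0.01 each time.

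MHC class II presentation is another set reported under FOXP1 control in DLBCL, and all 8 listed genes were tested. Of these 2 rose with Ento, 1 with AZD and 4 with Ento+AZD, and 0 fell with any exposure. Over all genes 4.66%, 9.57% and 19.2% rose and 3.66%, 12.7% and 20.8% fell with Ento, AZD and Ento+AZD. CD74, the invariant chain, rose with AZD (0.44, adjusted p = 0.0140) and Ento+AZD (0.78, adjusted p = 0.000128). With both agents HLA-DMB (0.63, adjusted p = 0.000860), HLA-DMA (0.36, adjusted p = 0.00715) and the transactivator CIITA (0.41, adjusted p = 0.00326) rose too. The median log2 fold change of the 8 was 0.28, 0.07 and 0.27 with Ento, AZD and Ento+AZD, where that of all genes was 0.01 each time. Of a further 3 genes placed downstream of FOXP1, S1PR2, the receptor that keeps B cells in the germinal centre, was tested and rose with Ento (0.36, adjusted p = 0.0113) and fell with AZD (-0.24, adjusted p = 0.0391), while RAG1 and RAG2 did not pass the filter.

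All 18 listed corepressors and partners of the FOXP proteins were tested. With Ento 3 rose and 0 fell, with AZD 1 rose and 2 fell, and with Ento+AZD 2 rose and 6 fell. Over all genes 4.66%, 9.57% and 19.2% rose and 3.66%, 12.7% and 20.8% fell in the same order, so the counts with AZD lay near the background. HDAC1 rose with all 3 exposures (0.35, 0.28 and 0.41, adjusted p = 0.00794, 0.0136 and 0.000405), whereas HDAC2 fell with Ento+AZD (-0.45, adjusted p = 0.000263). NFATC1, a partner in lymphocytes, fell with AZD (-0.43, adjusted p = 0.00303) and with Ento+AZD (-0.48, adjusted p = 0.000410). CTBP1 was not called, with log2 fold changes of -0.04, 0.12 and 0.13, and the median of the 18 was 0.05, -0.06 and 0.01.

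Of the 4 B cell markers 2 rose with Ento, 0 with AZD and 2 with Ento+AZD, and 0 fell, where 4.66%, 9.57% and 19.2% of all genes rose. The genes that rose were CD79A (0.42 and 0.52, adjusted p = 0.0266 and 0.00162) and CD79B (0.55 and 0.56, adjusted p = 0.0107 and 0.00159), the signalling chains of the B cell receptor. Of the 4 germinal centre markers MME rose with Ento (0.36, adjusted p = 0.0322). With AZD LMO2 rose (1.46, adjusted p = 0.00708) and MME and GCSAM fell (-0.37 and -0.46, adjusted p = 0.0139 and 0.0194). GCSAM also fell with Ento+AZD (-0.48, adjusted p = 0.00769). Over all genes 3.66%, 12.7% and 20.8% fell with Ento, AZD and Ento+AZD, so 1 fall of 4 with both agents lay near the background. SYK, the target of Ento, rose with Ento (0.47, adjusted p = 0.00455) and Ento+AZD (0.59, adjusted p = 0.000112), while the BET genes BRD2 and BRD3 were not called against DMSO. The part of these markers in the FOXP1 values was not tested.

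The 5 genes most like each member were found by Pearson correlation of log2 CPM over the 12 libraries after removal of the replicate-number means. For FOXP1 they were LOC105378184, HRK, LOC105371461, IGHGP and NEIL1 (r = 0.97 in each). HRK, a BH3-only gene, had log2 fold changes of 1.45 with Ento, -1.09 with AZD and 0.91 with Ento+AZD, the directions of FOXP1 at a larger size. For FOXP1-AS1 they were LOC112268269, RAPGEFL1, TMEM39B, CCDC78 and SPPL2B (r = 0.97 in each), with log2 fold changes between 0.22 and 0.80 against DMSO, smaller than those of FOXP1-AS1. For FOXP4 they were UBQLN2, NUDT19, XPO5, FAM207A and RBM27 (r = 0.91 to 0.89).

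Counts of tested genes above r = 0.9 were 134 for FOXP1, 207 for FOXP1-AS1 and 2 for FOXP4. FOXP1 and FOXP4 themselves correlated at r = -0.66. All of these values rest on the same libraries and 4 exposure groups, and they describe likeness of pattern only.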

How the data were processed

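The authors enriched poly-A RNA, prepared libraries with the NEBNext Ultra II RNA kit, sequenced single reads of 75 bases, removed adapters with TrimGalore (CutAdapt), used GRCh38.p13 as the genome and obtained a count per gene from Rsubread. What was deposited are raw whole-number counts per gene symbol. A second deposited table holds log2 values (log2 CPM), which were used only as an alternative. The submitters' processing notes also name bcl2fastq 2.19, edgeR and hg19. The handling of strand and of multi-mapped reads is not given in the sources used here.

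Counts were analysed with edgeR 4.0.16 (limma 3.58.1, R 4.3.3). Genes were filtered with filterByExpr by group (minimum count 10, total 15), libraries were scaled by TMM, and 1 model of all 12 libraries had exposure group and replicate number as terms without an intercept. Each contrast used edgeR's quasi-likelihood F-test, with p-values adjusted after Benjamini-Hochberg over 16835 genes, and a gene was called at an adjusted p under 0.05. SE was taken from F (the size of the log2 fold change over its root), and intervals are at 95% with the degrees of freedom of the fit. CPM are TMM-scaled. Ratios were tested by exact permutation.

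The replicate numbers come from the sample titles, and the study's model had a batch term. Deviations from the group means correlated at 0.213 to 0.703 between libraries of the same number (18 pairs), so the number was kept as a block. Other libraries gave -0.627 to 0.325 (36 pairs), a range partly set by the centring on the group means. Libraries of a group differed by more than sampling noise (chi-square per degree of freedom 8.21 to 48.5). Counts were also simulated for Ento+AZD against DMSO, in 16560 genes. The fit recovered 82 of 100 genes with a true log2 change of 1 and 99 of 100 with one of 2. It called 6 of 16360 unchanged genes. The 200 changed genes were drawn from the better counted ones, with equal numbers of rises and falls. In the data 40.0% of all genes were called in this comparison, so these rates hold for the simulated setting only.

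Genes were named by a rule: the members, the FOXP family, rows within 500 kb, listed genes, the forkhead genes with the 3 largest rises and falls, antisense pairs by symbol, and the 5 genes most like each member. The members and lists were chosen with earlier results of these data known. Alternatives were another filter, scaling, test (DESeq2 1.42.0, limma), set of libraries and no block. Coordinates are from GENCODE 44 and promoter windows from RefSeq. No column of another sample was present. Some genes and sequences of these lists are not reported here.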

Additional observations from a re-analysis of the deposited data

How the results depend on the processing

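Over 23 alternatives per comparison the FOXP1 log2 fold change kept its sign against DMSO and against each single agent, and FOXP4 was not called under any of them. Without the replicate block the FOXP1 log2 fold changes were 0.48 with Ento, 0.33 with Ento+AZD and 0.50 for Ento+AZD against AZD, none of which was called (adjusted p = 0.0985, 0.0554 and 0.133). With libraries or replicate numbers left out these 3 values ran from 0.37 to 0.60, from 0.20 to 0.46 and from 0.43 to 0.55, and the value for AZD from -0.29 to -0.019. The FOXP1-AS1 value ran from 1.27 to 1.73 with Ento and from 0.82 to 1.55 with AZD. F of the FOXP4 to FOXP1 ratio ran from 5.39 to 11.1, in a design that with 2 replicate numbers cannot give p below 0.0417, and without the block p was 0.00292 (permutation test).

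Of the 16835 genes tested, fewer were called without the replicate block. The counts fell to 36 with Ento, 326 with AZD, 2398 with Ento+AZD, 206 for Ento+AZD against Ento and 17 for Ento+AZD against AZD (from 1401, 3745, 6736, 3440 and 2001). The gene lists then held 0 to 2 called members per comparison. With the block, the 18 corepressors and partners alone had 2 rises and 6 falls with Ento+AZD. Part of the calls of list members given above was thus lost without it. Without a filter 2294 genes were called with Ento and 278 for the interaction, where DESeq2 called 7, and 2343 with AZD when the 2 groups compared were fitted alone. With libraries left out the counts ran from 422 to 1686, 994 to 4092, 4539 to 6700, 1070 to 4093 and 205 to 2608, and from 0 to 219 for the interaction. The causes were not tested. Among the 3 members depth limits FOXP1-AS1 most, with 11 counts in 2 of the DMSO libraries. It limits FOXP3 too, which had 8 to 17 counts per library.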
